A study of Homo sapiens with 21 samples.

Results

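The genes described here are 10 transcription factors that mark regions of the gut tube: SOX2, CDX1, CDX2, BARX1, NKX3-2, HNF4A, HNF4G, KLF5, OSR1 and ISX. They were chosen by symbol as regulators of foregut, stomach and intestine, with earlier results of these data known. They are 10 of the 62699 genes of the count table that were used. RNA was sequenced from islet cells made from H1, an established human embryonic stem cell line, in 21 libraries. Cells were wild type (WT), ISL1-/-, PAX6-/- or PDX1-/-, and were transduced on day 11 with a lentivirus carrying either BFP alone, a blue fluorescent protein used as the control, or ISL1 followed by an IRES2 and BFP. BFP+ cells were sorted and harvested on day 18, with the same protocol and days in all groups. There were 3 biological replicates in each of the ISL1-/-, PAX6-/- and PDX1-/- BFP groups and in the ISL1-/- and PAX6-/- ISL1-vector groups, and 2 in the WT BFP, WT ISL1-vector and PDX1-/- ISL1-vector groups. Replicates are named below by the number in the library name, which gives 2 and 4 for PDX1-/- with the ISL1 vector and 1 and 3 for WT with BFP. The promoter that drives the vector, and whether each knockout line is a single clone, are not given in the sources used here.

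The gut tube is patterned by transcription factors that are switched on in neighbouring stretches of endoderm and in the mesenchyme around it. SOX2 marks the foregut and stomach, and CDX2 and CDX1 mark the intestine, where CDX2 is required for intestinal identity. ISX is an intestinal homeobox factor known as a target of CDX2, HNF4A and HNF4G drive enterocyte and liver metabolism, and KLF5 is a zinc finger factor of the endodermal epithelium. BARX1 and NKX3-2 act in the stomach and foregut mesenchyme, and OSR1 is known from foregut and intermediate mesoderm. The pancreas buds from the endoderm between the SOX2 and CDX2 domains under PDX1, and stem cell-derived islets are known to hold serotonin-making cells that resemble intestinal enterochromaffin cells.

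All 10 members passed the filter on low counts. The libraries held 36807615 to 60199880 counts. CHGA, a granin of endocrine cells, measured in CPM (the usual depth-scaled read count, here with TMM-normalized library sizes), lay between 10300 and 48900 CPM and NEUROD1 between 319 and 1100 CPM in every library, and both are general endocrine markers. With BFP, the glucagon gene GCG and the somatostatin gene SST were lower in ISL1-/- and PAX6-/- than in WT (adjusted p up to 0.0251) and not called in PDX1-/- (adjusted p = 0.417 and 0.0612). GCG averaged 43800 CPM in WT, 83.5 CPM in ISL1-/-, 40.9 CPM in PAX6-/- and 16900 CPM in PDX1-/-. SST averaged 116, 0.507, 10.8 and 19.8 CPM in the same order. With the BFP vector ISL1 counts were lower than in WT in ISL1-/- (log2 difference -2.42, edgeR adjusted p = 0.00126) and in PDX1-/- (log2 -1.43, adjusted p = 0.0254). They were not called in PAX6-/- (log2 -1.1, adjusted p = 0.112), nor in PDX1-/- against ISL1-/- (log2 0.99, adjusted p = 0.125). The BFP and ISL1-vector libraries of a genotype were not separated by ISL1 counts, and PAX6 and PDX1 counts did not set apart their knockouts. Directions across vectors therefore rest on the labels. PDX1-/- ISL1-vector replicate 4 and PAX6-/- ISL1-vector replicate 3 had mitochondrial shares of 3.84% and 3.16%, against 1.28% to 1.93% in the other 19, and stood apart in several members. In the PDX1-/- ISL1-vector group INS was 164 CPM in one replicate and 25600 CPM in the other, replicate 4, against 87.5 to 186 CPM in PDX1-/- with BFP and 5650 to 8380 CPM over the 4 WT libraries. In bulk RNA, fewer cells of a type cannot be told apart from less RNA per cell.

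RefSeq (GRCh38.p14) gave promoter windows for 6 of the 10 members, and 5 are shown as the 250 bases before the annotated start, 5′ to 3′ on the gene's strand. CDX2, HNF4A and ISX are shown because their levels moved together over the libraries, and NKX3-2 and KLF5 because theirs moved in opposite directions. Capitals mark matches on either strand to TAAT (a homeodomain core, reverse ATTA). They also mark the CDX core motif TTTAT (reverse ATAAA) and the GC box GGGCGG (reverse CCGCCC).
CDX2: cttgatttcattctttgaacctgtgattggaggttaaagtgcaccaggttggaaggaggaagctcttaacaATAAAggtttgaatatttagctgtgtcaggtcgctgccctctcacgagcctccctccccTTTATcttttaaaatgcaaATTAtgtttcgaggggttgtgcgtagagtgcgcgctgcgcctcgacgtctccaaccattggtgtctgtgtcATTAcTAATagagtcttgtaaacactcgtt
HNF4A: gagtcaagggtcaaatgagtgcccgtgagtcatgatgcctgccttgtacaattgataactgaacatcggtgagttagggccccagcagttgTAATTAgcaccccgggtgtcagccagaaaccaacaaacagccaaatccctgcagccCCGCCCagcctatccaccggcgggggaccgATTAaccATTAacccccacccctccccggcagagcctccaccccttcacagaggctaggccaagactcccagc
ISX: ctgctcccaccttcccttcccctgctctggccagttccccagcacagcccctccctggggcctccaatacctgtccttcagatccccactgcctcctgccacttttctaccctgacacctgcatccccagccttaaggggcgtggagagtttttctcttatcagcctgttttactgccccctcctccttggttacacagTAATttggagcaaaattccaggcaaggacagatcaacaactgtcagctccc
NKX3-2: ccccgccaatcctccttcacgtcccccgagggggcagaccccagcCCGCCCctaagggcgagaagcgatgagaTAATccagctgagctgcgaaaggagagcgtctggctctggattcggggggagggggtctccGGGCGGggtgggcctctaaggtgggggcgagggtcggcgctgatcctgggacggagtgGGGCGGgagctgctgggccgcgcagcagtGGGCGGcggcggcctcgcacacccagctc
KLF5: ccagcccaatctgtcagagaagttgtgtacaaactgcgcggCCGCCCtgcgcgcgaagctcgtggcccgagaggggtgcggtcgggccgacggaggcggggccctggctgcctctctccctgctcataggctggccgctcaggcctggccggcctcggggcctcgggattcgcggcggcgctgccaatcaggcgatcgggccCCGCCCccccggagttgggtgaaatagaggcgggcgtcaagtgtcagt
The windows are chr13:27969316-27969565 (CDX2, minus strand), chr20:44400989-44401238 (HNF4A, plus), chr22:35065908-35066157 (ISX, plus), chr4:13544509-13544758 (NKX3-2, minus) and chr13:73058755-73059004 (KLF5, plus). The HNF4A and KLF5 windows lie at starts inside the gene's bounds, the end of the ISX window also lies just inside them, and gene counts sum over all promoters of a gene.

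TAAT was matched 3 times before CDX2, 4 times before HNF4A (TAATTA holds 2 overlapping matches), once before ISX and before NKX3-2, and not before KLF5. It occurred in 47.4% of 35116 RefSeq promoter windows of the same length. TTTAT was matched 2 times before CDX2 and in 32.7% of windows. GGGCGG was matched 4 times before NKX3-2, 2 times before KLF5 and 1 time before HNF4A, and in 42.6% of windows. Neither AAAGTCCA (an HNF4 core, in 0.98% of windows) nor TATAAA (in 10.7%, overlapping the reverse of TTTAT) was matched in these 5. GC content was 45.2% before CDX2, 58% before HNF4A, 56% before ISX, 71.6% before NKX3-2 and 70.8% before KLF5, with a median of 58% over all windows. These matches describe letters and are not binding sites.

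The members' levels were compared with each other per kb of exon, averaged over the 21 libraries. KLF5 was highest at 64.1 CPM per kb, ahead of CDX2 at 27.9, ISX at 25.7 and SOX2 at 14.3 CPM per kb. HNF4G (8.53), OSR1 (8.26), HNF4A (5.99), NKX3-2 (4.84) and CDX1 (3.31 CPM per kb) followed, and BARX1 was near the floor at 0.0943 CPM per kb. The order of neighbours such as CDX2 and ISX, or HNF4G and OSR1, changed between groups: in WT with BFP ISX was 35.3 ± 4.8 and CDX2 33.8 ± 1.8 CPM per kb (SD, n = 2), and in PDX1-/- with BFP CDX2 was 22 ± 3.14 and ISX 13.9 ± 1.79 CPM per kb (SD, n = 3).

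**Figure D1:**
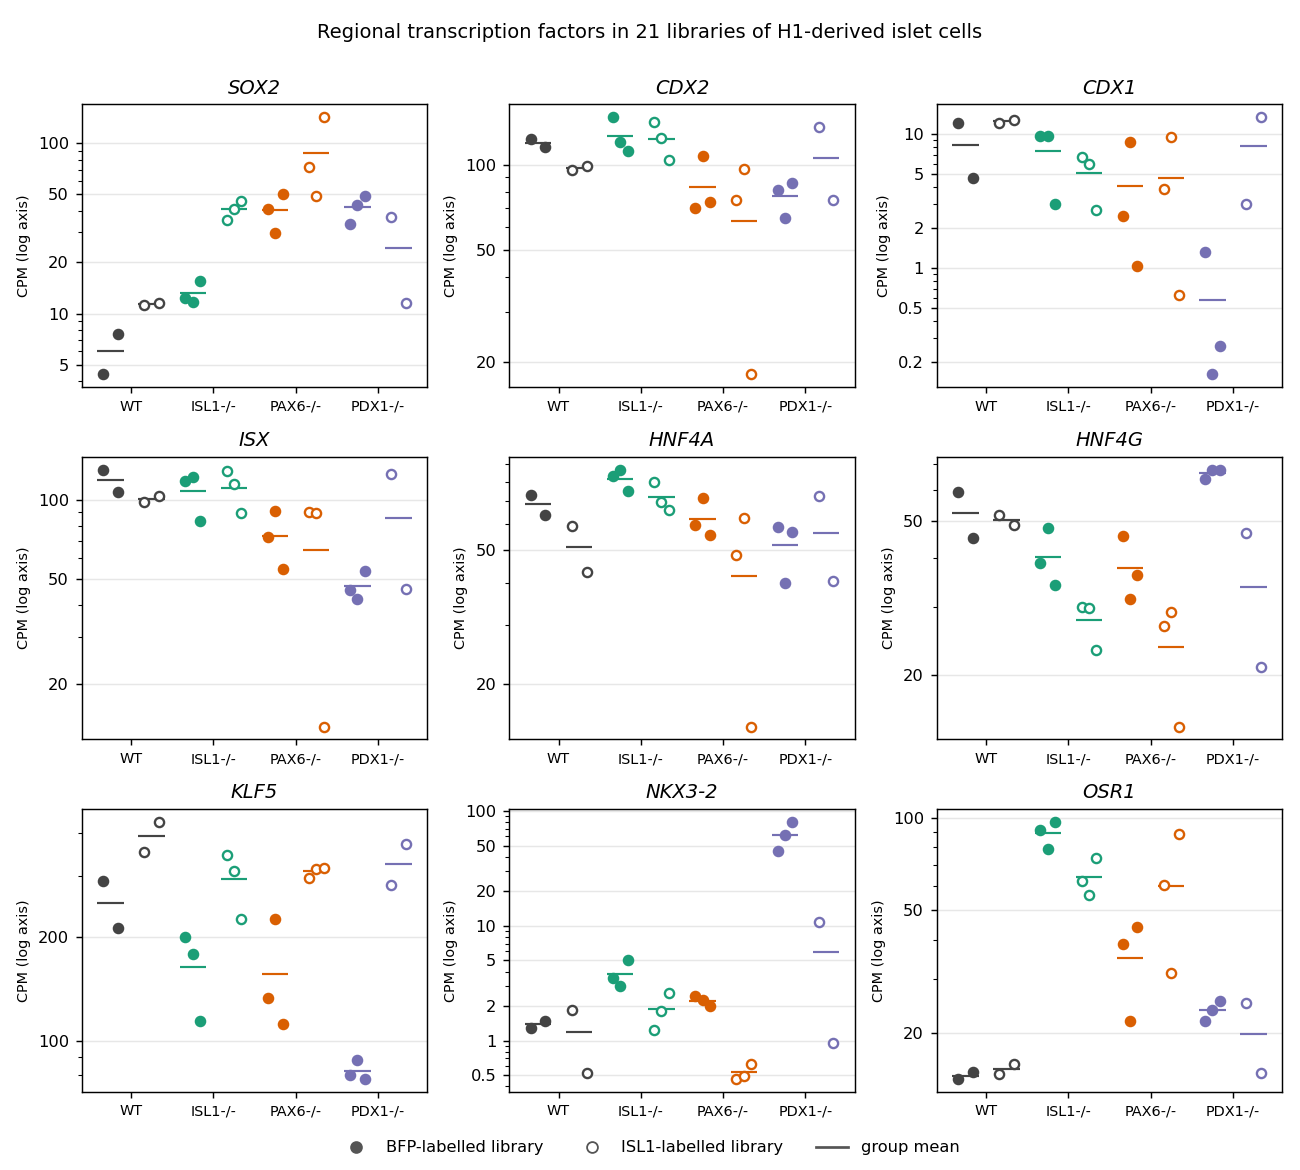
Levels of 9 members in CPM (log axis) by group, with 1 point per library, filled for the BFP vector and open for the ISL1 vector, and a bar at the group mean; BARX1, at 0 to 0.563 CPM, is left out. NKX3-2 stands at 45.1 to 80.4 CPM in the PDX1-/- BFP libraries, against 0.465 to 10.9 CPM in all other libraries, and OSR1 is highest in ISL1-/- with BFP.

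In the comparisons with WT under the BFP vector, which share the same 2 WT libraries, 1 of 10 members was called in ISL1-/- (OSR1 higher; 5.59% of all 25884 genes tested were called), 2 in PAX6-/- (SOX2 and OSR1 higher; 5.51% of all genes) and 4 in PDX1-/- (NKX3-2 and SOX2 higher, KLF5 and CDX1 lower; 9.68% of all genes). A call is an adjusted p under 0.05 in edgeR's quasi-likelihood test over all genes. The members' median log2 difference was -0.03, -0.3 and -0.31, against 0.02, 0.03 and 0.03 over all genes. Between knockouts with BFP, 5 members were called in PDX1-/- against ISL1-/- (5.07% of all genes), 1 in PDX1-/- against PAX6-/- (3.04%) and 2 in PAX6-/- against ISL1-/- (2.46%).

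**Figure D2:**
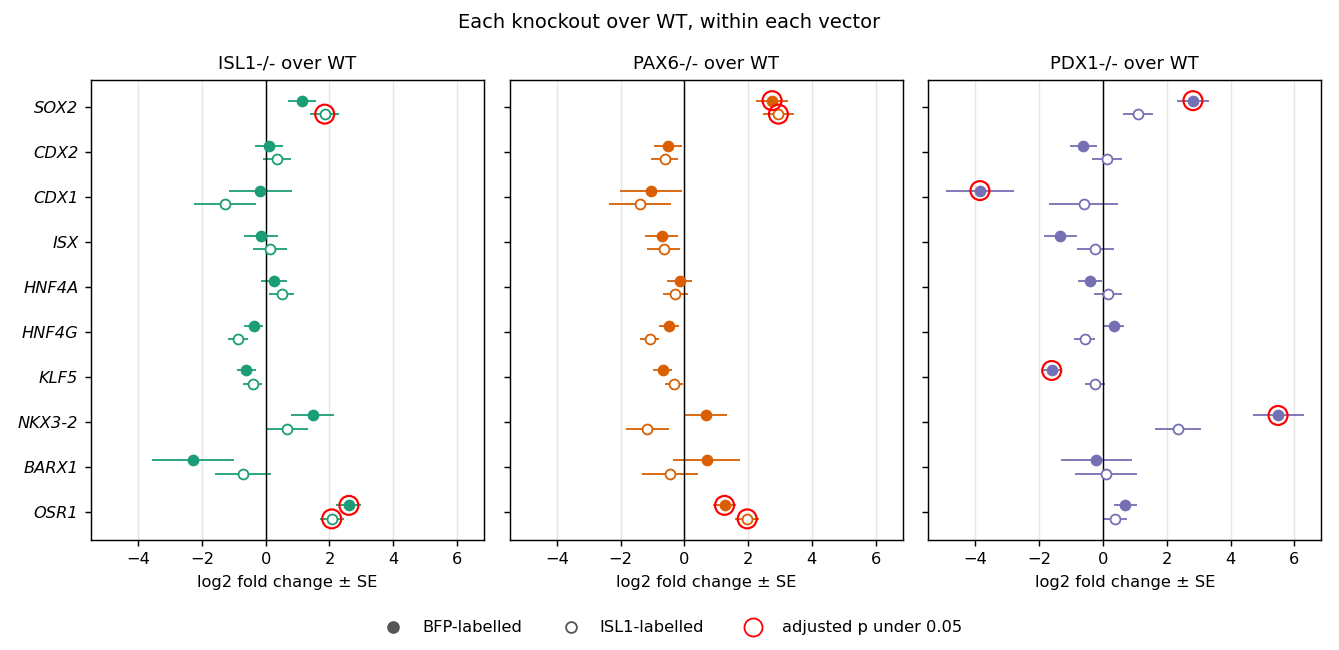
Log2 difference of each knockout from WT (x axis, with its standard error as the bar) for the 10 members, filled for BFP and open for ISL1-vector libraries, with a red ring where the adjusted p was under 0.05. NKX3-2 is at 5.49 and CDX1 at -3.86 in PDX1-/- with BFP, and OSR1 at 2.61 in ISL1-/- with BFP.

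SOX2, the foregut and stomach factor (ENSG00000181449.4, chr3:181711925-181714436), was lowest in WT and higher in PAX6-/- and PDX1-/- cells. With BFP it measured 4.4 and 7.59 CPM in WT, 12.4, 11.7 and 15.5 CPM in ISL1-/-, 41.1, 29.7 and 50.3 CPM in PAX6-/-, and 33.5, 43.6 and 49.1 CPM in PDX1-/-. Every knockout library exceeded both WT libraries, and the PAX6-/- and PDX1-/- libraries also exceeded every ISL1-/- library. SOX2 rose 6.75-fold in PAX6-/- (log2 2.75, SE 0.49, adjusted p = 0.00354) and 7.04-fold in PDX1-/- (log2 2.82, SE 0.49, adjusted p = 0.00179). The ISL1-/- difference, log2 1.14 (SE 0.45), did not pass (adjusted p = 0.165). It did pass without the 2 libraries of high mitochondrial share (log2 1.17, adjusted p = 0.00351), a setting added after the data were seen under which 23.5% of all genes were called. The PAX6-/- call was lost without WT BFP replicate 1 (adjusted p = 0.0926), and the PDX1-/- call was kept without each of its 5 libraries (log2 2.47 to 3.26).

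Against ISL1-/- with BFP, SOX2 was higher in PDX1-/- by log2 1.67 (SE 0.4, adjusted p = 0.0194) and in PAX6-/- by log2 1.61 (SE 0.4, adjusted p = 0.0351). These 2 calls were lost when any of 4 and any of 5 of their 6 libraries was left out, with adjusted p up to 0.0961 and 0.163. With the ISL1 vector SOX2 was 11.2 and 11.5 CPM in WT, 35.5, 41.3 and 46 CPM in ISL1-/-, 72.2, 48.9 and 142 CPM in PAX6-/-, and 37.1 and 11.5 CPM in PDX1-/-. The ISL1-/- and PAX6-/- libraries lay above both WT libraries, and PDX1-/- replicate 4 sat at the WT level. SOX2 was higher in ISL1-/- (log2 1.85, adjusted p = 0.0327) and PAX6-/- (log2 2.95, adjusted p = 0.00263). The first was lost without any 1 of its 5 libraries (adjusted p up to 0.261) and the second without either WT library (up to 0.0676) or when the compared groups were fitted alone (adjusted p = 0.118). Under the ISL1 vector 2 members were called in ISL1-/- (3.72% of all genes), 2 in PAX6-/- (3.56%) and 0 in PDX1-/- (0.634%), where 2 members had an unadjusted p under 0.05 and DESeq2 called 1.

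Markers of other tissues were read beside SOX2. The summed level of 5 neural progenitor genes was 5.5 to 12.6 CPM in PAX6-/- with BFP and 1.47 to 1.96 CPM in WT with BFP, and 1 of the 5, FABP7, was higher (log2 2.95). In PDX1-/- with BFP the sum was 3.32 to 3.98 CPM and 0 of 5 were called by edgeR (0 with an unadjusted p under 0.05). The part of such cells in the SOX2 values was not tested. The 5 pluripotency genes summed to 5.41 to 7.05 CPM in ISL1-/-, 9.17 to 13.8 CPM in PAX6-/-, 5.97 to 9.49 CPM in PDX1-/- and 12.4 to 12.8 CPM in WT with BFP, and to 13 to 17.6 CPM in ISL1-/- with the ISL1 vector. LIN28A, an RNA-binding protein of stem cells, made up most of the sum at 3.6 to 20.2 CPM, and POU5F1 and NANOG reached at most 0.504 and 0.139 CPM. LIN28A was higher in PAX6-/- than in ISL1-/- with BFP (log2 1, adjusted p = 0.0446) and with the ISL1 vector than with BFP in ISL1-/- (log2 1.34, adjusted p = 0.0239), where SOX2 was log2 1.61 (called) and log2 1.63 (adjusted p = 0.0979, not called). It was not called in PAX6-/- or PDX1-/- against WT with BFP (log2 0.03 and -0.69). Its part in the SOX2 values was not tested. SOX2 lies within SOX2-OT, which had 4 to 67 counts and shares no exon bases with it. Of 6 tested paralogs of members, SOX1 and SOX3 rose in PDX1-/- with BFP (log2 3.85 and 2.84), SOX1 rose in ISL1-/- (log2 2.3), and 0 passed in PAX6-/- (2 at an unadjusted p under 0.05).

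CDX2, the intestinal regulator (ENSG00000165556.10, chr13:27960918-27969315), was present in every library. With BFP it was 123 and 115 CPM in WT, 147, 120 and 112 CPM in ISL1-/-, 69.9, 107 and 73.5 CPM in PAX6-/-, and 81.2, 64.9 and 86 CPM in PDX1-/-. Levels in PAX6-/- and PDX1-/- lay below both WT libraries, and those in ISL1-/- spanned them. The differences did not pass: log2 0.09 in ISL1-/- (adjusted p = 0.955), -0.51 in PAX6-/- (adjusted p = 0.6) and -0.62 in PDX1-/- (SE 0.43, adjusted p = 0.457). In ISL1-vector libraries it was 95.3 and 98.9 CPM in WT, 141, 124 and 104 CPM in ISL1-/-, 74.7, 96.2 and 18.1 CPM in PAX6-/-, and 136 and 74.7 CPM in PDX1-/-. The lowest value came from PAX6-/- replicate 3, which had the second-highest mitochondrial share. Without the 2 libraries of high mitochondrial share CDX2 was lower in PDX1-/- with BFP (log2 -0.64, adjusted p = 0.0157), where 27.6% of all genes were called.

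The ratio of SOX2 to CDX2 per kb of exon sets the foregut and the intestinal factor side by side. It was 0.0498 and 0.0927 in WT with BFP and 0.118, 0.137 and 0.193 in ISL1-/- with BFP. In PAX6-/- with BFP it was 0.823, 0.388 and 0.958, and in PDX1-/- with BFP 0.578, 0.941 and 0.8, above every WT and ISL1-/- BFP library but still with CDX2 the higher. With the ISL1 vector the ratio was 0.164 and 0.164 in WT, 0.352, 0.467 and 0.621 in ISL1-/-, 1.35, 0.711 and 11 in PAX6-/-, and 0.381 and 0.215 in PDX1-/-. SOX2 exceeded CDX2 in PAX6-/- ISL1-vector replicates 1 and 3 alone among the 21 libraries, and the value of 11 came from replicate 3.

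**Figure D3:**
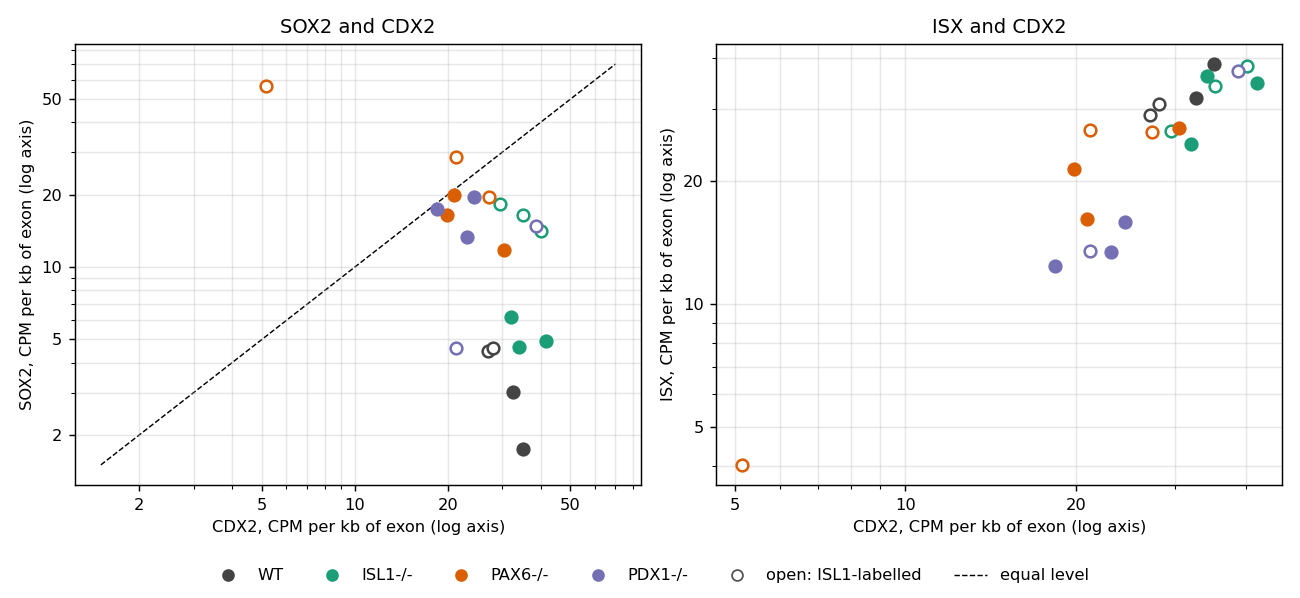
SOX2 against CDX2 and ISX against CDX2, both in CPM per kb of exon on log axes, with 1 point per library, filled for BFP and open for the ISL1 vector; the dashed line marks equal levels. SOX2 lies above the line in 2 libraries, both PAX6-/- with the ISL1 vector, and ISX follows CDX2 closely.

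ISX (ENSG00000175329.13, chr22:35066136-35087387) moved with CDX2. With BFP it was 131 and 108 CPM in WT, 118, 123 and 83.7 CPM in ISL1-/-, 72.6, 91.2 and 54.6 CPM in PAX6-/-, and 45.4, 41.9 and 53.7 CPM in PDX1-/-. The PDX1-/- libraries were the lowest of the 4 genotypes, without overlap. The difference from WT, log2 -1.34 (SE 0.52), did not pass (adjusted p = 0.121). It passed without the 2 libraries of high mitochondrial share (log2 -1.36, adjusted p = 8.8e-05), where 27.6% of all genes were called. Neither of these libraries is in the compared groups. Under the ISL1 vector ISX was 98.2 and 104 CPM in WT, 129, 115 and 89.5 CPM in ISL1-/-, 90.5, 89.3 and 13.7 CPM in PAX6-/-, and 126 and 45.8 CPM in PDX1-/-. The low values 13.7 and 45.8 CPM belonged to the 2 libraries of high mitochondrial share.

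CDX1, the second intestinal CDX factor (ENSG00000113722.18, chr5:150166778-150184558), was lower than CDX2 and more variable. It measured 12 and 4.66 CPM in WT with BFP, 9.61, 9.64 and 3.02 CPM in ISL1-/-, 2.43, 8.71 and 1.04 CPM in PAX6-/-, and 1.31, 0.161 and 0.262 CPM in PDX1-/-. The PDX1-/- libraries lay below both WT libraries, and the other 2 knockouts overlapped WT. CDX1 fell 14.5-fold in PDX1-/- (log2 -3.86, SE 1.06, adjusted p = 0.028), a call lost without PDX1-/- replicate 2 or 3 or either WT replicate (adjusted p up to 0.247, log2 -5.30 to -3.02). Against ISL1-/- it was lower by log2 -3.69 (adjusted p = 0.0417), lost without any of 4 of its 6 libraries (up to 0.186). Against PAX6-/- the difference, log2 -2.82, did not pass (adjusted p = 0.152), and the libraries of these groups overlapped. The ratio of CDX2 to CDX1 per kb was 31.3, 204 and 165 in PDX1-/- with BFP and 3.93 to 12.4 in the 4 WT libraries.

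HNF4A, a nuclear receptor of liver, gut and islet (ENSG00000101076.20, chr20:44355699-44432845), was present at similar levels in all groups with BFP. It was 73.1 and 63.8 CPM in WT, 82.9, 86.9 and 75.2 CPM in ISL1-/-, 59.4, 71.4 and 55.4 CPM in PAX6-/-, and 58.7, 39.8 and 56.5 CPM in PDX1-/-. The ISL1-/- libraries lay above both WT libraries, the PDX1-/- libraries below them, and the PAX6-/- libraries spanned the lower one. The differences from WT were log2 0.26, -0.14 and -0.41, with adjusted p = 0.814, 0.907 and 0.626. Under the ISL1 vector it was 59 and 42.9 CPM in WT, 80, 69.4 and 66 CPM in ISL1-/-, 48.2, 62.2 and 14.9 CPM in PAX6-/-, and 72.3 and 40.5 CPM in PDX1-/-, with the lowest value again in PAX6-/- replicate 3. HNF4A shares 84 exon bases (0.826% of its exons) with MIR3646, which had 0 counts.

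HNF4G, its paralog (ENSG00000164749.13), was, with BFP, highest where HNF4A was lowest. With BFP it was 59.4 and 45.1 CPM in WT, 38.8, 47.8 and 34.1 CPM in ISL1-/-, 45.6, 31.4 and 36.3 CPM in PAX6-/-, and 64.2, 67.8 and 67.5 CPM in PDX1-/-. The PDX1-/- libraries were the highest, above both WT libraries, and log2 0.35 from WT did not pass (adjusted p = 0.597). In ISL1-vector libraries it was 51.7 and 48.8 CPM in WT, 30, 29.8 and 23.2 CPM in ISL1-/-, 26.8, 29.1 and 14.7 CPM in PAX6-/-, and 46.4 and 21 CPM in PDX1-/-. The knockouts lay below both WT libraries, with log2 -0.86 in ISL1-/- (adjusted p = 0.139) and -1.09 in PAX6-/- (adjusted p = 0.0598). The ratio of HNF4G to HNF4A per kb was 2.32, 3.61 and 2.53 in PDX1-/- with BFP, 1.72 and 1.5 in WT with BFP, and 0.961 to 1.16 in ISL1-/- with BFP.

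KLF5, the epithelial zinc finger factor (ENSG00000102554.14, chr13:73054976-73077541), was lowest in PDX1-/- with BFP. It measured 290 and 212 CPM in WT, 200, 178 and 114 CPM in ISL1-/-, 133, 225 and 112 CPM in PAX6-/-, and 80, 88.3 and 77.8 CPM in PDX1-/-. The PDX1-/- libraries lay below all other BFP libraries. KLF5 fell 3.05-fold from WT (log2 -1.61, SE 0.29, adjusted p = 0.00216), and the call held without each of the 5 libraries (log2 -1.82 to -1.37). It was also lower than in ISL1-/- (log2 -1, adjusted p = 0.0352), a call lost without any of 5 of its 6 libraries (up to 0.172). Against PAX6-/- the difference, log2 -0.93, did not pass (adjusted p = 0.0666), and it passed in 10 of 29 other settings. The ISL1-/- and PAX6-/- differences from WT, log2 -0.61 and -0.68, did not pass (adjusted p = 0.257 and 0.202). Beside this, the summed level of duct markers was 550 to 664 CPM in PDX1-/- with BFP and 1320 to 1330 CPM in WT with BFP, and its part in the KLF5 values was not tested.

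NKX3-2, a homeobox factor of the foregut mesenchyme (ENSG00000109705.8, chr4:13540830-13544508), gave the largest fold of the 10 members in PDX1-/- against WT with BFP. It was 1.3 and 1.48 CPM in WT with BFP, 3.49, 3 and 5.02 CPM in ISL1-/-, 2.47, 2.25 and 1.99 CPM in PAX6-/-, and 45.1, 61.4 and 80.4 CPM in PDX1-/-. No library of another group with BFP came near the PDX1-/- values. NKX3-2 rose 44.9-fold from WT (log2 5.49, SE 0.8, adjusted p = 0.000538), 16.2-fold from ISL1-/- (log2 4.02, adjusted p = 0.000981) and 27.9-fold from PAX6-/- (log2 4.8, adjusted p = 0.000311). All 3 calls held without each of their libraries, with log2 5.26 to 5.67, 3.79 to 4.26 and 4.57 to 4.99. The ISL1-/- difference from WT, log2 1.47, did not pass (adjusted p = 0.239). It did without the 2 libraries of high mitochondrial share (log2 1.49, adjusted p = 0.0124), where 23.5% of all genes were called.

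Mesenchyme and enterochromaffin markers were read beside NKX3-2. Of 16 gut mesenchyme genes, 0 were called by edgeR in PDX1-/- with BFP against WT (2 at an unadjusted p under 0.05), and their summed level was 99.9 to 827 CPM against 235 to 1270 CPM in WT with BFP, while NKX3-2 in the same PDX1-/- libraries was at 45.1 to 80.4 CPM. The members of that list differed: COL3A1, a collagen, ran from 27 to 1380 CPM and PDGFRB, a growth factor receptor of mesenchyme, from 1.66 to 52.3 CPM over the libraries, while the transcription factors TCF21 and FOXF1 reached at most 2.12 and 2.42 CPM. PDGFRB, which was not called, was 3.34 to 9.83 CPM in PDX1-/- and 19.3 to 23.9 CPM in WT with BFP. It is 1 gene of the list, whose summed levels overlapped between these groups and whose median log2 difference was -0.76. The part of mesenchyme in the NKX3-2 values was not tested. The 5 enterochromaffin genes summed to 2790 to 3350 CPM in PDX1-/- with BFP and to 550 to 677 CPM in WT with BFP, and 4 of the 5 rose, among them TPH1, the enzyme of serotonin synthesis (log2 3.39). They summed to 1550 to 2150 CPM in ISL1-/- with BFP, 979 to 1640 CPM in PAX6-/- with BFP and 1030 to 1040 CPM in PDX1-/- with the ISL1 vector. Their part in the NKX3-2 values was not tested.

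BARX1, the stomach mesenchyme factor (ENSG00000131668.14, chr9:93951627-93955355), was at the edge of detection, with 0 to 23 counts a library. It was at 0 in 2 libraries, ISL1-/- replicate 1 and PAX6-/- replicate 1 with BFP, where 3 counts, the limit that a count of 0 allows, correspond to 0.046 to 0.091 CPM over the libraries. With BFP it was 0.0659 and 0.121 CPM in WT, 0, 0.0347 and 0.0156 CPM in ISL1-/-, 0, 0.161 and 0.284 CPM in PAX6-/-, and 0.0415, 0.125 and 0.0656 CPM in PDX1-/-. With the ISL1 vector it was 0.147 and 0.479 CPM in WT, 0.24, 0.183 and 0.144 CPM in ISL1-/-, 0.116, 0.294 and 0.273 CPM in PAX6-/-, and 0.123 and 0.563 CPM in PDX1-/-. The BFP libraries lay below the ISL1-vector libraries in WT and in ISL1-/-, where they held 0 to 2 counts, and overlapped them in PAX6-/- and PDX1-/-. No comparison passed, the vector in ISL1-/- giving a fitted log2 3.31 (adjusted p = 0.28). Of the alternatives, sample quality weights called BARX1 for that comparison (adjusted p = 0.046), and leaving out ISL1-vector replicate 2 called it for the vector in PDX1-/- (adjusted p = 0.0361).

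OSR1, the foregut and mesodermal zinc finger factor (ENSG00000143867.7, chr2:19351485-19358623), was highest in ISL1-/-. It was 14.2 and 14.9 CPM in WT with BFP, 91.3, 79.2 and 96.8 CPM in ISL1-/-, 39, 21.8 and 44.1 CPM in PAX6-/-, and 21.9, 23.7 and 25.4 CPM in PDX1-/-. All knockout libraries exceeded WT, and the ISL1-/- libraries exceeded all other BFP libraries. OSR1 rose 6.11-fold in ISL1-/- (log2 2.61, SE 0.39, adjusted p = 0.000641), and the call held without each of the 5 libraries (log2 2.55 to 2.69). The PAX6-/- rise, 2.4-fold (log2 1.26, SE 0.36, adjusted p = 0.0493), was lost without PAX6-/- replicate 1 or 3 or either WT replicate (up to 0.3), under RLE scaling, with the title number as a replicate block, and when any 1 of 12 of the 16 libraries of other groups was left out. It passed in 11 of 29 settings. In PDX1-/- log2 0.7 did not pass (adjusted p = 0.261). Against ISL1-/-, OSR1 was lower in PDX1-/- by log2 -1.91 (adjusted p = 0.00198) and in PAX6-/- by log2 -1.35 (adjusted p = 0.0251, lost without any of 5 of 6 libraries, up to 0.117).

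With the ISL1 vector OSR1 was 14.7 and 15.9 CPM in WT, 62.4, 56 and 74.1 CPM in ISL1-/-, 60.4, 31.2 and 88.4 CPM in PAX6-/-, and 25 and 14.8 CPM in PDX1-/-. It was higher in ISL1-/- (log2 2.07, adjusted p = 0.00456) and PAX6-/- (log2 1.97, adjusted p = 0.00628), both lost without either WT library (up to 0.0843 and 0.114). When the compared groups were fitted alone the PAX6-/- call was also lost (adjusted p = 0.224). The gut mesenchyme sum in these libraries was 1660 to 1920 CPM in WT, 125 to 227 CPM in ISL1-/-, 189 to 923 CPM in PAX6-/- and 129 to 439 CPM in PDX1-/-, and its part in the OSR1 values was not tested.

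The ISL1 vector was compared with BFP within each genotype. By edgeR, 0 of 10 members were called in WT (0.027% of all genes, 0 members at an unadjusted p under 0.05, 0 by DESeq2), 0 in ISL1-/- (0.382%, 3 unadjusted, 1 by DESeq2), 0 in PAX6-/- (0.355%, 5 unadjusted, 2 by DESeq2) and 3 in PDX1-/- (12.5%). The median log2 difference over all genes was 0.11 in PAX6-/- and 0.13 in PDX1-/-, with members' medians of 0.01 and 0.29. It was 0 in WT and 0.03 in ISL1-/-, with members' medians of 0.01 and -0.12.

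KLF5 was higher with the ISL1 vector in all 4 genotypes without overlap: 351 and 430 CPM in WT, 346, 311 and 225 CPM in ISL1-/-, 297, 315 and 316 CPM in PAX6-/-, and 282 and 370 CPM in PDX1-/-. The log2 differences were 0.64 (adjusted p = 1), 0.84 (adjusted p = 0.258), 0.98 (adjusted p = 0.148) and 1.99 (SE 0.29, adjusted p = 0.000609), so KLF5 rose by the test in PDX1-/-, 3.97-fold. That call held without each of the 5 libraries (log2 1.78 to 2.16) and was lost with sample quality weights and when the 2 groups were fitted alone. NKX3-2 with the ISL1 vector was 1.85 and 0.521 CPM in WT, 1.25, 1.81 and 2.61 CPM in ISL1-/-, 0.465, 0.495 and 0.629 CPM in PAX6-/-, and 10.9 and 0.948 CPM in PDX1-/-. It fell 10.4-fold in PDX1-/- (log2 -3.38, SE 0.71, adjusted p = 0.0064). Without replicate 4 the fall was log2 -2.51 and without replicate 2 log2 -6.04, each leaving 1 library in the group. The NKX3-2 call was lost under the same 2 settings as KLF5. Replicate 2 alone lay above WT with the ISL1 vector by log2 3.21.

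CDX1 with the ISL1 vector was 12.1 and 12.7 CPM in WT, 6.73, 6 and 2.7 CPM in ISL1-/-, 3.86, 9.54 and 0.629 CPM in PAX6-/-, and 3.02 and 13.3 CPM in PDX1-/-. It rose 14.1-fold in PDX1-/- (log2 3.82, SE 1.06, adjusted p = 0.0275), and this was lost without replicate 4 (log2 2.4, adjusted p = 0.385) or without PDX1-/- BFP replicate 2 or 3. It was also lost with sample quality weights (adjusted p = 0.678) and with the compared groups alone (adjusted p = 0.268). The library number 4 occurs in no other library, so a replicate block by library number leaves replicate 2 alone in this group. With that block the difference was log2 1.71. Leaving out the 2 libraries of high mitochondrial share also removes replicate 4. HNF4G in PDX1-/- was log2 -0.98 (adjusted p = 0.0534), and it was -1.68 without replicate 2, which leaves replicate 4 alone in its group. SOX2 in PDX1-/- depended on the library in the same way: both replicates together gave log2 -0.79, and replicate 4 alone -1.88.

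Same-numbered libraries of the 2 vectors deviated together in ISL1-/- (r = 0.43, 0.27 and 0.61) and PAX6-/- (r = 0.25, 0.51 and 0.52), and with the library number as a replicate block more members passed. In ISL1-/- SOX2 was then higher with the ISL1 vector (log2 1.64, adjusted p = 0.0017) and so was KLF5 (log2 0.85, adjusted p = 0.0438), where 1.87% of all genes were called. In PAX6-/- SOX2 (log2 1.05, adjusted p = 0.0247) and KLF5 (log2 1.04, adjusted p = 0.0161) were higher and NKX3-2 lower (log2 -2.1, adjusted p = 0.00807), with 2.23% of all genes called. When each pair of groups was fitted alone with the block, 6 members were called in ISL1-/- and 0 in PAX6-/-, where SOX2, KLF5 and NKX3-2 had adjusted p = 0.538, 0.538 and 0.475. The share of all genes called in these fits alone is not given here. Without the block SOX2 was log2 1.63 (adjusted p = 0.0979) in ISL1-/- and 1.12 (adjusted p = 0.309) in PAX6-/-, and NKX3-2 -2.08 (adjusted p = 0.204) in PAX6-/-.

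The difference between a knockout's vector effect and that of WT was tested as an interaction. By edgeR 0 members were called for ISL1-/- (0.00386% of all genes, 0 members at an unadjusted p under 0.05, 0 by DESeq2), 0 for PAX6-/- (0%, 0 unadjusted, 0 by DESeq2) and 0 for PDX1-/- (1.19%, 4 unadjusted, 2 by DESeq2). For PDX1-/- the values were -3.15 for NKX3-2 (adjusted p = 0.126), 1.35 for KLF5 (adjusted p = 0.137), -1.72 for SOX2 (adjusted p = 0.214) and 3.25 for CDX1 (adjusted p = 0.3). Without PDX1-/- ISL1-vector replicate 2, which leaves replicate 4 alone in its group, 4 members were called for PDX1-/-, and leaving out any other 1 library called 0. The knockouts' vector effects were not tested against each other.

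**Figure D4:**
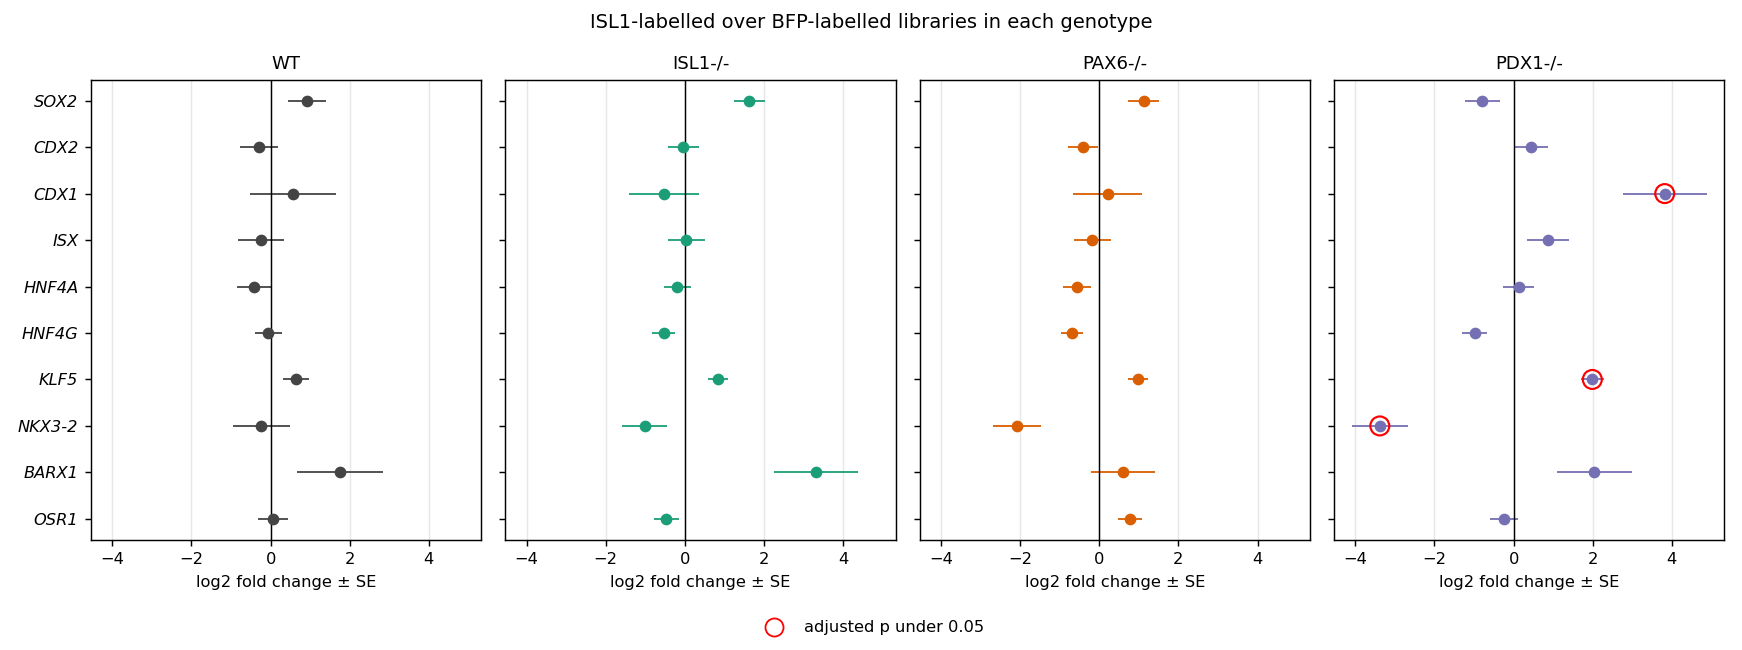
Log2 difference between ISL1-vector and BFP libraries (x axis, with its standard error as the bar) for the 10 members in each genotype, with a red ring where the adjusted p was under 0.05. The rings are all in PDX1-/-, at 1.99 for KLF5, -3.38 for NKX3-2 and 3.82 for CDX1, and KLF5 lies right of 0 in every genotype.

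Across the 21 libraries, which share group structure, normalization and the 2 libraries of high mitochondrial share, log2 CPM of CDX2 and HNF4A correlated with r = 0.94 (rho 0.88), CDX2 and ISX with r = 0.93 (rho 0.88), and HNF4A and ISX with r = 0.87 (rho 0.75). Without the 2 high-mitochondrial libraries these were 0.80, 0.83 and 0.62, over 19 libraries. NKX3-2 and KLF5 went in opposite directions (r = -0.81, and -0.80 over the 19), and CDX1 went with KLF5 (r = 0.72, and 0.82 over the 19). SOX2 was negatively correlated with CDX1 (r = -0.62) and CDX2 (r = -0.57). These are descriptions over 36 pairs of 9 members, with no test.

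Genes whose log2 CPM followed a member most closely over the 21 libraries were taken from 16154 genes with a mean of at least 1 CPM. They were NR5A2 (r = 0.983), TSKU and ADD3 for ISX, COL2A1 (r = 0.964), PPFIBP2 and HNF4A for CDX2, and KIF1C (r = 0.958), PPFIBP2 and PKDCC for HNF4A. RGS7BP (r = 0.973) and SERINC2 led for NKX3-2, TMEM30B (r = 0.975) for HNF4G, REST (r = 0.958) for KLF5, and GADL1 (r = 0.918) for CDX1. SOX2 and OSR1 had looser neighbours, with YPEL1 at r = 0.887 and CORIN at r = 0.867. Without the 2 libraries of high mitochondrial share r was 0.972 for NR5A2, 0.883 for COL2A1, 0.890 for KIF1C and 0.973 for RGS7BP. It was 0.963 for TMEM30B, 0.957 for REST, 0.928 for GADL1, 0.862 for YPEL1 and 0.857 for CORIN. By group means RGS7BP still led for NKX3-2, and a different gene led for each other member.

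Target and marker genes of the gut regions were read from lists chosen with earlier results of these data known. Of 19 tested intestinal epithelium genes, 2 rose and 5 fell in ISL1-/- with BFP, 1 rose and 7 fell in PAX6-/-, and 2 rose and 7 fell in PDX1-/-, with median log2 differences of -1.14, -2.04 and -2.05. LGALS4, a lectin of enterocytes, fell by 3.81, 3.74 and 4.92 on the log2 scale. KRT20, an intestinal keratin, fell in all 3, from a mean of 1.34 CPM in WT to 0.137, 0.0478 and 0.0955 CPM. LGR5, a stem cell receptor of the intestine, rose in ISL1-/- and PAX6-/-, to 0.832 to 1.48 and 0.851 to 1.59 CPM from 0.022 and 0.0907 CPM (1 and 3 counts) in the WT BFP libraries. TFF3, a goblet cell peptide, rose in ISL1-/- (log2 2) and PDX1-/- (log2 2.7).

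Of 14 lipoprotein and plasma protein genes known as HNF4A targets, 0 rose and 4, 5 and 9 fell in ISL1-/-, PAX6-/- and PDX1-/- with BFP, with medians of -0.96, -1.44 and -1.79, while HNF4A itself did not pass in any of them. AGT, angiotensinogen, fell by 3.33 on the log2 scale in ISL1-/-, APOA2 fell by 2.38 in PAX6-/- and APOH fell by 3.4 in PDX1-/-. With BFP, liver markers summed to 2220 to 3290 CPM in ISL1-/-, 1920 to 2610 CPM in PAX6-/-, 1340 to 1740 CPM in PDX1-/- and 6440 to 7970 CPM in WT. Their part in these counts was not tested. Of 11 tested stomach epithelium genes, 1 rose in ISL1-/- (TFF2, a gastric trefoil peptide, log2 2.26), 1 rose in PAX6-/- (VSIG1, a gastric junction protein, log2 2.4), and in PDX1-/- TFF1 and TFF2 rose while CTSE and AGR2 fell. Of 22 tested other gut tube and endoderm factors, 0 rose and 3 fell in ISL1-/-, 1 rose and 2 fell in PAX6-/-, and 0 rose and 3 fell in PDX1-/-. HHEX, a foregut endoderm homeobox factor, fell in each (log2 -2.42, -1.85 and -2.27).

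With the ISL1 vector stomach epithelium genes rose in every genotype: 2 in WT (VSIG1, log2 4.4, and TCN1, log2 2.85), 2 in ISL1-/- (VSIG1, log2 4.02), 2 in PAX6-/- (VSIG1, log2 2.42, and TFF2) and 8 in PDX1-/-, with 0 lower. VSIG1 was 1.33 to 1.69 CPM in WT with BFP and 26.1 to 37.8 CPM in WT with the ISL1 vector. In PDX1-/-, where 12.5% of all genes were called, TFF2 rose by log2 4.12 and AGR2, a mucin-folding enzyme, by log2 4.41. Without replicate 4, which leaves replicate 2 alone in its group, these were log2 4.64 and 4.24. With sample quality weights TFF2 passed (adjusted p = 0.0278) and AGR2 did not (0.289), and neither passed with the compared groups alone (0.201 and 0.143). HHEX rose in ISL1-/- (log2 2.64), PAX6-/- (log2 2.13) and PDX1-/- (log2 2.63), the last lost under both settings (adjusted p = 0.125 and 0.201). Of the intestinal list 8 rose and 1 fell in PDX1-/-. Without replicate 4 LGALS4 went from log2 5.73 to 1.31, KRT20 from 5.39 to 6.05 and A1CF from -0.86 to -0.88. Of the lipoprotein list 9 rose in PDX1-/-. Without replicate 4 APOA2 went from log2 3.56 to 0.12 and APOH from 4.35 to 1.12. In WT, ISL1-/- and PAX6-/-, 0 genes of the intestinal and lipoprotein lists were called by edgeR (4, 5 and 4 intestinal and 2, 0 and 1 lipoprotein genes at an unadjusted p under 0.05).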

How the data were processed

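Bulk RNA-seq libraries (SMART-Seq v4 with KAPA EvoPrep, NovaSeq X, per the labels' protocols) were deposited as a table of raw counts per gene. The authors used STAR 2.7.11b and featureCounts 2.1.1 on GRCh38, per the submitters' processing notes; the strand setting is not given in the sources used here, so reads of overlapping genes cannot be told apart by strand. Depth was 36807615 to 60199880 counts a library.

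Counts were fitted with edgeR 4.0.16 (R 4.3.3): TMM scaling, filterByExpr by group (minimum count 10, total 15; 25884 genes), 1 quasi-likelihood model over the 8 groups and 21 libraries, and Benjamini-Hochberg adjustment over all genes. CPM used the TMM library size, and log2 CPM a prior count of 2. The common biological coefficient of variation was 0.334. Groups came from the library names. The deposited entry of 1 gene, broken over several lines, was left out. Named genes were the members, the 2 genes of each list with the largest called change in each direction, and the 3 genes most like each member. Some further genes of the marker lists, such as those of gut mesenchyme, were named outside this rule to give levels within a list. The members and lists were chosen with earlier results of these data known. Alternatives were DESeq2 1.42.0, RLE scaling, no filter, limma 3.58.1 voom with sample quality weights, the compared groups alone, replicate blocks, and leaving out libraries. Scripts were tested on simulated data. Same-numbered libraries of the 2 vectors correlated by over 0.1 in every pair in ISL1-/- and PAX6-/- when numbers were taken from the library names; no label says that a number marks a shared batch. Replicates are biological per the series design, so p-values measure the spread between them. A group left with 1 library has no spread of its own, and its p-values rest on the spread of the other groups.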

Additional observations from a re-analysis of the deposited data

Results flagged for a closer look

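The vector effect in PDX1-/- differed from that in WT, by the interaction test of edgeR over all genes, in several genes of the stomach, intestinal and lipoprotein lists. The 5 of them with the largest difference, at most 2 a list, are given as a difference of log2 effects: CTSE, 4.02 (adjusted p = 0.00861); LGALS4, 7.52 (adjusted p = 0.012); FABP1, 5.95 (adjusted p = 0.0156); APOM, 5.28 (adjusted p = 0.0206); and APOH, 5.24 (adjusted p = 0.0251). CTSE, a gastric protease, was 2.99 to 3.89 CPM with BFP and 20.2 and 66.7 CPM with the ISL1 vector in PDX1-/-, and 14.2 to 16.5 and 9.53 to 14.7 CPM in WT. FABP1, a fatty acid carrier of enterocytes and liver, was 9.25 to 19.4 CPM with BFP and 21.9 and 547 CPM with the ISL1 vector in PDX1-/-. APOM was 11.8 to 19 CPM with BFP and 12.6 and 310 CPM with the ISL1 vector in PDX1-/-, so that 1 of its 2 libraries lay within the BFP range. No group had enough libraries to be tested for a single outlying sample. Without PDX1-/- ISL1-vector replicate 4 the difference for CTSE was 4.65 (adjusted p = 0.00134), and LGALS4 (3.11, adjusted p = 0.0766), FABP1 (2.26, adjusted p = 0.0989), APOM (1.62, adjusted p = 0.161) and APOH (2.02, adjusted p = 0.333) no longer passed. When the 4 groups were fitted alone none of the 5 passed, with adjusted p of 0.192 to 0.277.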

How the results depend on the processing

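Counts of members called were compared over settings, each against the count of the report. Leaving out 1 library gave 1 to 2 members for ISL1-/- against WT with BFP, 0 to 2 for PAX6-/-, 3 to 5 for PDX1-/-, 2 to 6 for PDX1-/- against ISL1-/-, 1 to 3 for PDX1-/- against PAX6-/- and 0 to 2 for PAX6-/- against ISL1-/-. It gave 0 to 0, 0 to 1, 0 to 1 and 2 to 6 for the vector in WT, ISL1-/-, PAX6-/- and PDX1-/-, 0 to 3, 0 to 3 and 0 to 1 for the 3 knockouts against WT with the ISL1 vector, and 0 to 0, 0 to 0 and 0 to 4 for the interactions. With the library number as a replicate block, 4 members were called for ISL1-/- against WT and for PDX1-/- against PAX6-/- with BFP (12.2% and 7.68% of all genes). Under this block 2 and 3 were called for the vector in ISL1-/- and PAX6-/- (1.87% and 2.23%). Number 4 occurs only in PDX1-/- ISL1-vector replicate 4, so this block leaves replicate 2 alone in that group, and its counts are left out. Numbers from the sample titles as the replicate block gave 1 for PAX6-/- against WT and 2 for PDX1-/- against PAX6-/-, and RLE scaling 1 for PAX6-/- against WT. Sample quality weights gave 3, 5 and 7 for the knockouts against WT with BFP, 9, 3 and 4 between knockouts, 4, 3 and 0 for the vector in ISL1-/-, PAX6-/- and PDX1-/-, and 4 for ISL1-/- against WT with the ISL1 vector. Fitting the compared groups alone gave 3 and 7 for ISL1-/- and PDX1-/- against WT, 9 and 3 for PDX1-/- against ISL1-/- and PAX6-/-, 1 and 0 for the vector in ISL1-/- and PDX1-/-, 5 and 0 for ISL1-/- and PAX6-/- against WT with the ISL1 vector, and 6 for the vector in ISL1-/- with the replicate block. DESeq2 gave 2 for PDX1-/- against PAX6-/-, 1 and 2 for the vector in ISL1-/- and PAX6-/-, 1 for PDX1-/- against WT with the ISL1 vector and 2 for the PDX1-/- interaction, and no filter gave 2, 1, 1 and 1 for PDX1-/- against PAX6-/-, both vector comparisons and the PDX1-/- interaction. Without the 2 libraries of high mitochondrial share the counts were 3 for ISL1-/- against WT with BFP (23.5% of all genes). They were 9 and 5 for PDX1-/- against ISL1-/- and PAX6-/- (21.7% and 16.3%), and 2 and 2 for the vector in ISL1-/- and PAX6-/- (4.93% and 4.97%). PDX1-/- with the ISL1 vector then held 1 library, so its counts are left out. For the other settings of this paragraph the share of all genes called is not given here. The cause of these shifts was not tested. Of the single-gene results, 4 changed direction, none called in the report. For the vector in PDX1-/-, SOX2 was 0.04 with the library number as a replicate block, which leaves ISL1-vector replicate 2 alone in its group. In the same comparison CDX2 was -0.06 and ISX -0.05 without ISL1-vector replicate 2 (up to 0.82 and 1.43 without another library). NKX3-2 in PDX1-/- against WT with the ISL1 vector was -0.33 without replicate 2 (up to 3.51 without another). Of the others, 1783 kept direction and side of the threshold, 83 no longer passed and 139 came to pass.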
